A study of Mus musculus with 4 samples.

Results

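Transcript levels of 8 genes that control plasminogen activation and the start of clotting were followed in mouse aorta: Plau, Plat, Plaur, Serpine2, F3, Tfpi, Thbd and Procr. They were taken by symbol from the 24342 gene symbols that each stood on 1 row of the deposited files, and all 8 passed the filter on low values that left 12312 genes for the test. RNA came from aorta of C57BL/6 mice at 3 weeks of age, with 2 libraries from GGPPS knockout (KO) mice and 2 from wild-type (WT) mice, and each library is labelled male and female. GGPPS, encoded by Ggps1, makes geranylgeranyl diphosphate, the lipid that anchors many small GTPases in membranes. Where and how Ggps1 was deleted is not in the labels, nor whether a library was 1 animal or a pool, so p-values rest on a spread between libraries that may be partly technical. Ggps1 stood at 1.18 and 1.07 FPKM in KO against 8.96 and 10.6 FPKM in WT, in the direction of the labels. FPKM is a fragment count scaled for transcript length and library size, so levels of different genes can be set side by side.

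Plasminogen circulates as an inactive precursor and is cut to plasmin, the protease that dissolves fibrin and also degrades matrix, by either of a pair of activators. Urokinase (Plau) does so mainly on cell surfaces, where the receptor uPAR (Plaur) holds it. Tissue-type activator (Plat) is released by vessel-wall cells and works best on fibrin. Protease nexin-1 (Serpine2) is a serpin that inhibits thrombin and both activators. Clotting starts when tissue factor (F3), a membrane protein of cells outside the lumen, meets factor VII, and tissue factor pathway inhibitor (Tfpi) blocks that step. Thrombomodulin (Thbd) and the endothelial protein C receptor (Procr) sit mainly on endothelium, where they turn thrombin toward activating the anticoagulant protein C.

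RefSeq promoter sequences (build GRCm38.p6, the assembly of mm10) were held for 5 of the 8 genes: Plaur, Procr, F3, Tfpi and Serpine2. The first 3 had the widest changes among these 5 and are shown. Beside them is the upstream one of 2 Tfpi promoters, for a gene whose change did not pass the test. Each is written 5′ to 3′ on the gene's strand and ends before the first annotated transcript start, and capitals mark matches to any of the motifs searched.
Plaur: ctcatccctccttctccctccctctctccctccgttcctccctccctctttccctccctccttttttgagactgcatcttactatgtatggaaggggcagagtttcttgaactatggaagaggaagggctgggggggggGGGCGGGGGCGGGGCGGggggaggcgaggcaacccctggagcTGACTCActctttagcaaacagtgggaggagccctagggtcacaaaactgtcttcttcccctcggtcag
Procr: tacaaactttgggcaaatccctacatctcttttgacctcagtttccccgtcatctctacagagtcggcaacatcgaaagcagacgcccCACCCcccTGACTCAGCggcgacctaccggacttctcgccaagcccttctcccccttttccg
F3: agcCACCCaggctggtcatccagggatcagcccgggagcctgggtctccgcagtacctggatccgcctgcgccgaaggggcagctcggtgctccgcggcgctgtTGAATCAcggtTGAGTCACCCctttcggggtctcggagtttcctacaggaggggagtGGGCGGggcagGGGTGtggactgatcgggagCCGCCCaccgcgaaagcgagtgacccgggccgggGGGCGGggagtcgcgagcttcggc
Tfpi: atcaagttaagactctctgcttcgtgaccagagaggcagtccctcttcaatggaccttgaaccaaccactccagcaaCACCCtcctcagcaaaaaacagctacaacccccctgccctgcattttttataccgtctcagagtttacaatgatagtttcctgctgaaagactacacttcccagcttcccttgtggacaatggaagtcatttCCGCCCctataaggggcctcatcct
These stretches are chr7:24462233-24462482 (plus strand) for Plaur, chr2:155750967-155751116 (plus) for Procr, chr3:121723287-121723536 (plus) for F3 and chr2:84476776-84477009 (minus) for Tfpi. All motifs were searched on both strands in the 250 bases before each RefSeq start site, and positions count from that site. For Procr the site is at 155751217 and for the Tfpi promoter shown at 84476759, both downstream of the end of the printed stretch. Their positions therefore do not count from the last base shown. The AP-1 motif TGANTCA matched once in Plaur, with its first base at -69, once in Procr, at -154, and at 2 places in F3, at -146 and -135. It had no match in Serpine2 or in either of the 2 Tfpi promoters, and 6.75% of 32851 promoters held one. So the motif was found beside 2 genes that rose and 1 that fell. The second AP-1 match in F3 runs into a KLF match, CACCC, and the match in Procr starts on the same base as a match to the antioxidant response motif TGACNNNGC, which 10.2% of promoters held. CACCC matched in Procr, F3 and both Tfpi promoters and in 52% of all promoters. The GC box GGGCGG was held by 32.7% of all promoters. It matched at 6 places in Serpine2, at 3 in Plaur and in F3 and at 1 in each Tfpi promoter. Some of these matches overlap each other. The windows of Serpine2 and of the Tfpi promoter not shown lie wholly inside the annotated genes, downstream of the first annotated transcript start. The cAMP response motif TGACGTCA and the NF-kB motif, held by 1.55% and 0.356% of promoters, had no exact match in any of the 5 genes. The NF-kB motif was searched as a strict pattern, and near matches were not counted. The F3 stretch shown holds a run of bases that differs from this pattern only at its first base. The lack of an exact match therefore does not show that a promoter has no NF-kB site. A match describes letters in the window and is no measurement of binding.

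In KO aorta 5 of the 8 genes were higher (Plaur, Procr, Plau, Plat and Thbd), 1 was lower (F3) and 2 did not pass the test (Serpine2 and Tfpi). The widest changes were those of Plaur, 8.68-fold higher, Plau, 5.26-fold higher, Procr, 5.15-fold higher, and F3, 5.08-fold lower, as ratios of mean FPKM. The call was a limma adjusted p under 0.05 on log2(FPKM + 1), adjusted over all genes tested. By the same rule 35.2% of all genes tested were higher and 30.6% lower in KO, 65.7% in either direction, so a called change was common in these libraries. The 2 KO values did not overlap the 2 WT values for 7 of the 8 genes, against 83.1% of all genes tested, a share near that background. By size of change, 0.829% of tested genes had a wider log2 change in either direction than Plaur, 2.37% a wider one than Procr, 2.71% a wider one than F3 and 4.28% a wider one than Plau, against 29.2% for Plat, 63.0% for Thbd, 75.2% for Tfpi and 97.0% for Serpine2. The median log2 fold change of the 8 genes was 0.54, and that of all genes tested 0.030.

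**Figure D1:**
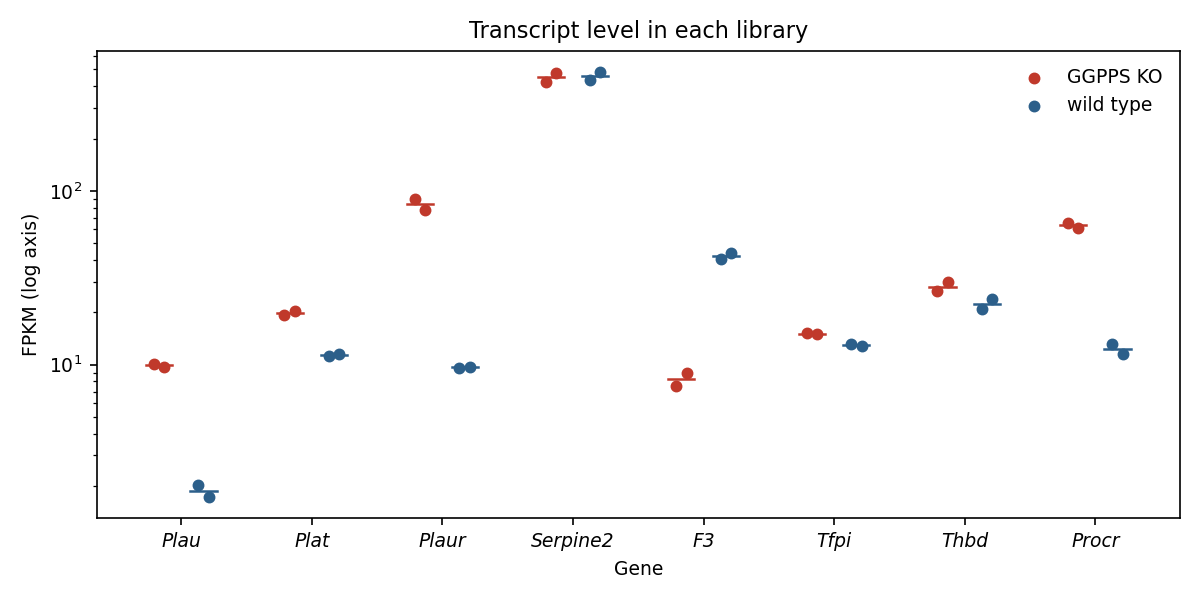
FPKM of the 8 genes in each library, on a log axis, with KO (red) left of WT (blue) for each gene. Points are single libraries and bars the mean of 2. Plau, Plaur and Procr sit well above their WT values and F3 well below, while the Serpine2 points of both genotypes lie between 425 and 484 FPKM.

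Both plasminogen activators were higher in KO, Plau by more than Plat. Plau (mm10 chromosome 14, 20836660 to 20843385, plus strand, 11 exons) stood at 10.1 and 9.72 FPKM in KO and at 2.02 and 1.74 FPKM in WT. The genotypes did not overlap, and the log2 fold change was 1.92 (SE 0.12, limma adjusted p = 1.59e-08). Plat (chromosome 8, 22757727 to 22782844, plus strand, 14 exons) stood at 19.2 and 20.4 FPKM in KO and at 11.2 and 11.4 FPKM in WT. Its log2 fold change was 0.76 (SE 0.11, limma adjusted p = 4.48e-05), a 1.75-fold higher mean. Plat was the more abundant activator in both genotypes, but its level per level of Plau was 1.91 and 2.10 in KO against 5.54 and 6.58 in WT. Added together, the activators reached 29.3 and 30.1 FPKM in KO and 13.2 and 13.2 FPKM in WT.

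Plaur, the receptor that holds urokinase at the cell surface, had the widest change of the 8 genes. It lies on chromosome 7, 24462484 to 24475968, plus strand, with 7 exons. Its level was 90.1 and 77.3 FPKM in KO and 9.62 and 9.66 FPKM in WT, with a log2 fold change of 2.99 (SE 0.11, limma adjusted p = 9.73e-11). KO library 1 was the higher of the 2 KO libraries, and the WT libraries were nearly equal. In KO its level stood above that of 91.0% of tested genes, against 47.8% in WT. Receptor and protease rose by different amounts, so that Plaur over Plau was 8.96 and 7.96 in KO against 4.77 and 5.56 in WT. Among the tested genes nearest to Plaur by distance on log2(FPKM + 1) over the 4 libraries were Uap1l1 (distance 0.196) and Rpl26 (0.429). Uap1l1 stood at 78.7 and 78.8 FPKM in KO and at 9.49 and 9.62 FPKM in WT. The level of Rpl26 is uncertain because the gene has near-identical copies.

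Serpine2, the serpin of the group, was by far its most abundant transcript in both genotypes and did not pass the test. It lies on chromosome 1, 79794197 to 79861180, minus strand, with 9 exons. Its level was 425 and 477 FPKM in KO and 434 and 484 FPKM in WT, and the genotypes overlapped. The log2 fold change was -0.025 with a 95% interval of -0.24 to 0.19 (limma adjusted p = 0.836). A change of any size within that interval is compatible with these 2 libraries per genotype. With column totals made equal the value was -0.29 and passed as lower (limma adjusted p = 0.0161), and with quantile normalization it was -0.28 (0.0198). Serpine2 per unit of the summed activators was 14.5 and 15.8 in KO against 32.9 and 36.7 in WT.

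F3 fell, while Tfpi, the inhibitor of the step that F3 starts, did not pass the test. F3 (chromosome 3, 121723537 to 121735048, plus strand, 6 exons) stood at 7.58 and 8.96 FPKM in KO and at 40.4 and 43.6 FPKM in WT. Its log2 fold change was -2.22 (SE 0.12, limma adjusted p = 2.47e-09). F3 was thus the lowest of the 8 genes in KO and the second highest in WT. In KO it stood above 43.3% of tested genes, against 83.9% in WT. Tfpi (chromosome 2, 84432855 to 84476775, minus strand, 8 exons) stood at 15.1 and 15.0 FPKM in KO and at 13.1 and 12.7 FPKM in WT. Its values did not overlap, but the log2 fold change of 0.21 (95% interval -0.033 to 0.45) did not pass (limma adjusted p = 0.117), and it was -0.038 with equal column totals. F3 over Tfpi was 0.500 and 0.596 in KO against 3.08 and 3.42 in WT, so the more abundant transcript of this pair was Tfpi in KO and F3 in WT.

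Both genes of the protein C pathway were higher in KO, Procr by far the more. Procr (chromosome 2, 155751117 to 155755471, plus strand, 4 exons) stood at 65.8 and 61.2 FPKM in KO and at 13.2 and 11.4 FPKM in WT, a log2 fold change of 2.28 (SE 0.11, limma adjusted p = 1.23e-09). Thbd (chromosome 2, 148404466 to 148408188, minus strand, 1 exon) stood at 26.5 and 29.7 FPKM in KO and at 21.0 and 23.9 FPKM in WT. Its log2 fold change was 0.31 (SE 0.12, limma adjusted p = 0.0279), a 1.25-fold higher mean. The Thbd call ended in 6 of 13 alternatives. Equal column totals gave 0.060 (limma adjusted p = 0.626). Without KO library 2, WT library 1 or WT library 2 the adjusted p was 0.0928, 0.315 and 0.0574. Procr over Thbd was 2.48 and 2.06 in KO against 0.628 and 0.479 in WT, so Procr was the more abundant of the pair in KO and Thbd in WT. For each of the 6 sums and ratios named here, a two-sided exact permutation test of 2 libraries against 2 gave p = 0.333, the smallest it allows, and the adjusted p was 0.333 as well.

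**Figure D2:**
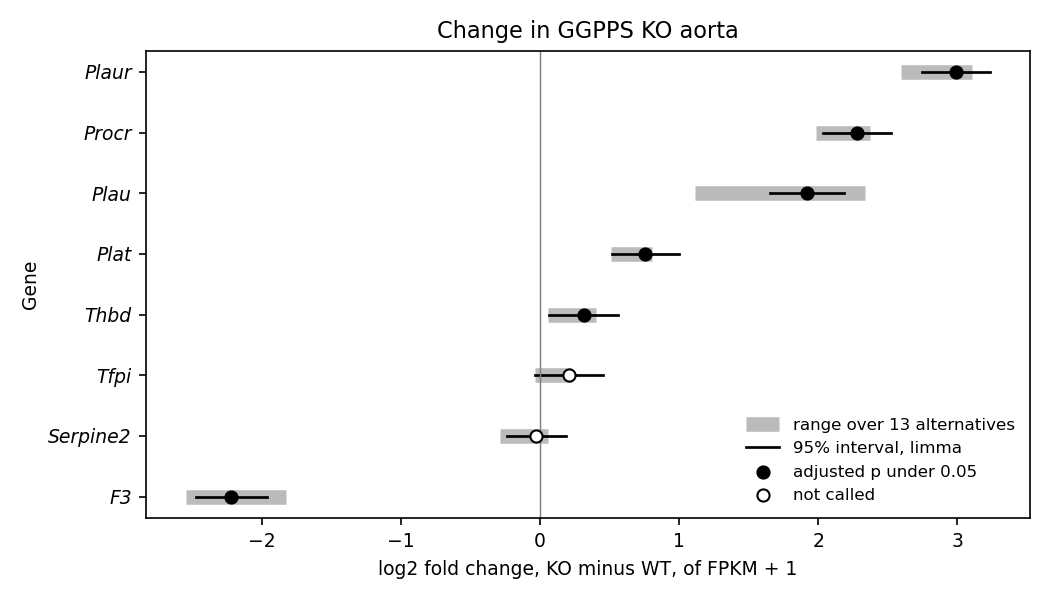
Log2 fold change of FPKM + 1, KO minus WT, for the 8 genes. Points are the fitted values (filled where the limma adjusted p was under 0.05), black lines 95% intervals and grey bars the range over 13 alternatives. Plaur, Procr, Plau, Plat and F3 stay on 1 side of 0 throughout, as does Thbd, which comes down to 0.060, and Serpine2 and Tfpi cross it.

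**Figure D3:**
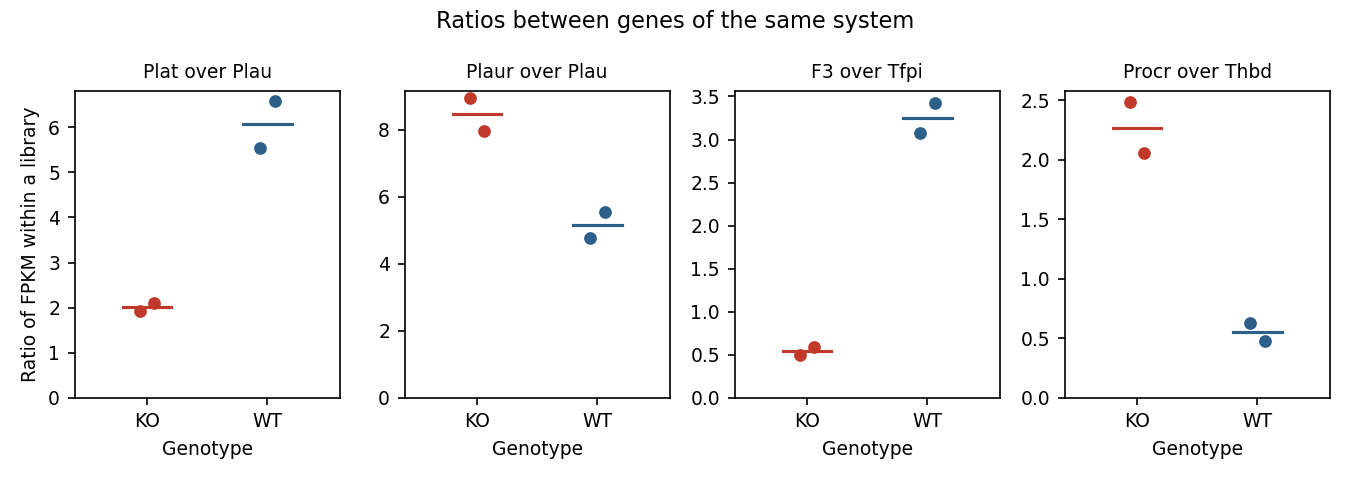
Ratios of FPKM between genes of the same system within each library, KO left of WT, with points for libraries and bars for the mean of 2. F3 over Tfpi lies below 1 in KO and above 3 in WT, and Procr over Thbd lies above 2 in KO and below 1 in WT.

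The order of levels within the group differed between the genotypes. In KO it was Serpine2, Plaur, Procr, Thbd, Plat, Tfpi, Plau and F3, and no neighbours in that order overlapped in their 2 libraries. In WT it was Serpine2, F3, Thbd, Tfpi, Procr, Plat, Plaur and Plau. There Tfpi and Procr overlapped, and the lower Procr library and the higher Plat library were both at 11.4 FPKM, so the place of Procr was not resolved, while Tfpi lay above Plat in both libraries.

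Markers of several cell types moved with genotype in the same libraries. The background for the counts below is 35.2% of all genes tested higher and 30.6% lower in KO. In bulk tissue, fewer cells of a type and less RNA per cell cannot be told apart. Endothelial markers fell in 10 of 12 tested cases, with none higher, and the 14 listed genes summed to 164 and 177 FPKM in KO against 384 and 384 FPKM in WT. Of these, Kdr and Robo4 stayed under 1 FPKM in every library. Macrophage markers rose in 14 of 14 cases, with summed levels of 706 and 603 FPKM in KO against 88.8 and 90.5 FPKM in WT, and general leukocyte markers in 5 of 5. Contractile smooth muscle markers fell in 12 of 12 cases, from a list led by Acta2 and Tagln that summed to 4223 and 5612 FPKM in KO against 16531 and 18480 FPKM in WT. Fibroblast markers fell in 9 and rose in 2 of 11 cases. Of 8 platelet markers, 3 were tested and rose (Pf4, Ppbp and Itga2b), and the other 5 stayed under 1 FPKM, with Gp6 at 0 in 3 of the libraries. Among those 5, Gp1ba lay the other way, at 0.128 and 0.148 FPKM in KO against 0.778 and 0.729 FPKM in WT, and was too low to be tested. Neither of 2 tested red cell markers nor the 1 tested fat marker passed, and 2 of 3 tested skeletal muscle markers fell. The part of these shifts in the values of the 8 genes was not tested. Procr and Thbd are known mainly from endothelium, whose markers were lower in KO. Procr was higher in KO, and Thbd was called higher but kept that call in only 7 of 13 alternatives. F3, a protein of cells outside the lumen, was lower, and so were the contractile smooth muscle markers and most fibroblast markers. Plau and Plaur are known to be made by macrophages, among other cells, and the macrophage markers rose beside them.

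Other genes of the system were read from 3 lists. The plasma precursors themselves were nearly absent: Plg, plasminogen, lay between 0 and 0.0174 FPKM, and Proc, protein C, F2, prothrombin, and the fibrinogen chains Fga and Fgb were listed at 0 in all 4 libraries. These proteins are known to be made by the liver, and the 5 hepatocyte markers stayed under 1 FPKM in every library. Of 14 other plasminogen activation genes 8 were tested, with a median log2 fold change of 0.54. Of these 5 were higher and 2 lower, against 35.2% and 30.6% of all genes tested. No list was tested as a set. Anxa2, annexin A2, which binds plasminogen and Plat at cell surfaces, stood at 679 and 780 FPKM in KO and at 255 and 307 FPKM in WT (log2 fold change 1.38, SE 0.11, limma adjusted p = 1.26e-07). Eno1, enolase 1, which also serves as a plasminogen receptor, stood at 228 and 233 FPKM in KO and at 100.4 and 78.4 FPKM in WT. The Eno1 level is uncertain, as copies of the gene share its sequence. The others that rose, named after their values were seen, were S100a10, the annexin A2 partner, by 0.89 on the log2 scale, Mrc2, an endocytic receptor, by 0.69, and Plgrkt, a plasminogen receptor, by 0.38, a call that ended in 3 of 13 alternatives. Those that fell, likewise named afterwards, were Vldlr, a receptor that clears protease complexes (-0.55, a call that ended in 2 of 13 alternatives), and Serpini1, neuroserpin, an inhibitor of Plat (-0.45).

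Clotting factor genes were mostly silent, with 12 of 18 under 1 FPKM in every library. Of the 6 tested, 3 were higher and 1 lower, against 35.2% and 30.6% of all genes tested. Their median log2 fold change was 0.23. The gene that fell was Vwf, von Willebrand factor, which tethers platelets to the vessel wall. Its level was 9.22 and 10.2 FPKM in KO against 29.6 and 26.9 FPKM in WT (log2 fold change -1.45, SE 0.12, limma adjusted p = 1.21e-07). Vwf is also 1 of the endothelial markers. Lman1 and Mcfd2, which carry factors V and VIII out of the endoplasmic reticulum and were named after their values were seen, were higher by 0.95 and 0.70 on the log2 scale. Vkorc1, which recycles vitamin K, stood at 260 and 241 FPKM in KO and at 227 and 192 FPKM in WT, and its call as higher ended in 7 of 13 alternatives.

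Of 15 other anticoagulant and thrombin receptor genes 6 were tested, with a median log2 fold change of -0.40. Of these 1 was higher and 3 lower, against 35.2% and 30.6% of all genes tested. Entpd1, the ectonucleotidase CD39, which removes platelet-activating ATP and ADP, stood at 27.9 and 38.0 FPKM in KO and at 121 and 129 FPKM in WT (log2 fold change -1.91, SE 0.13, limma adjusted p = 2.65e-08). Anxa5, annexin A5, which covers the phospholipids that clotting enzymes need, stood at 374 and 422 FPKM in KO and at 199 and 203 FPKM in WT (log2 fold change 0.98, SE 0.097, limma adjusted p = 9.66e-07). F2rl1, the protease-activated receptor PAR2, and Hs3st1, an enzyme of anticoagulant heparan sulfate, were named after their values were seen and fell by 0.97 and 0.85 on the log2 scale. F2r, the main thrombin receptor PAR1, stood at 44.0 and 52.4 FPKM in KO and at 37.5 and 58.3 FPKM in WT and did not pass the test, nor did Pros1, protein S (limma adjusted p = 0.852 and 0.677).

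**Figure D4:**
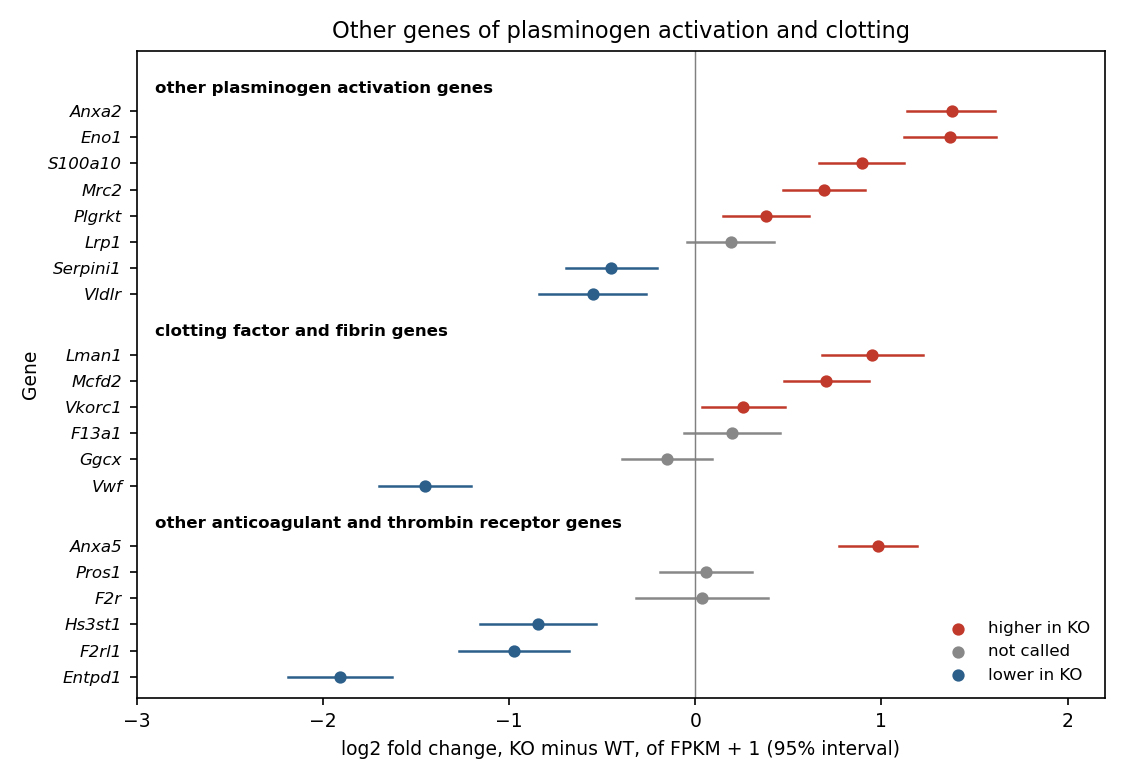
Log2 fold change of FPKM + 1, KO minus WT, with 95% intervals, for the 20 tested genes of 3 lists other than the 8 genes above. Red marks genes higher in KO, blue genes lower in KO and grey genes not called; Anxa2 and Eno1 are the highest and Entpd1 and Vwf the lowest.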

How the data were processed

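RNA of 4 aorta libraries was sequenced after poly-A selection, per the labels' protocols. The authors deposited FPKM values in 1 file per library, with the unit misspelt per the file headers. Tools listed without a role in the submitters' processing notes are DESeq2 1.16.1, HISAT2 2.0.5 and featureCounts 1.5.0-p3, and the listed build is mm10. Use of strand in counting is not stated in the labels. In GENCODE M21 no gene overlaps any of the 8, while Arid4b overlaps Ggps1 on the opposite strand. A search for whole-fragment steps found none (the most frequent ratio of low values covered 0.320% of 2188 genes in KO and 0.302% of 1986 in WT), so depth is unknown and precision rests on 2 libraries per genotype. Column totals were 611707 and 632852 FPKM in KO and 515847 and 520398 FPKM in WT, and 2 symbols found on more than 1 row were left out.

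A gene was tested if 2 or more libraries reached 1 FPKM, with limma 3.58.1 (R 4.3.3, intensity trend) on log2(FPKM + 1), KO minus WT, with Benjamini-Hochberg adjustment over all of them at 0.05. This scale understates changes of low genes. Limma's moderated variance had 13.4 degrees of freedom in all, 2 of them from the libraries of the gene itself. The script was tested on simulated data. The 8 genes, the pathway lists and the marker lists were chosen with earlier results of these data known. From each list the genes named were called ones with a log2 change of at least 1, up to 4 in each direction, and the most abundant tested gene. Other list genes and markers named fall outside that rule and were picked after their values were seen. Alternatives changed the pseudocount, filter, scaling, length and GC trends (from the longest transcript per gene), variance model and libraries used. One gene that the rule for likeness to Plaur names is not reported here.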

Additional observations from a re-analysis of the deposited data

How the results depend on the processing

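Plau, Plat, Plaur, Procr and F3 kept their direction and call in all 13 alternatives, with log2 ranges of 1.11 to 2.34, 0.51 to 0.80, 2.60 to 3.10, 1.99 to 2.37 and -2.54 to -1.83. Equal column totals, which moved the median of all genes tested to -0.20, gave 3116 higher and 5578 lower genes in place of 4331 and 3762, and 2 of the 8 genes lower in place of 1, with Thbd at 0.060 (limma adjusted p = 0.626), Serpine2 at -0.288 (0.0161), now lower, and Tfpi at -0.038 (0.753). Quantile normalization also gave 2 lower, with Serpine2 at -0.284 (0.0198) and Thbd at 0.229 (0.0665). With no filter Thbd stood at 0.314 (0.0573). Leaving out 1 library at a time, Thbd ranged from 0.225 to 0.402 and its call held only without KO library 1. Over the same fits Serpine2 ranged from -0.108 to 0.058, above 0 without KO library 1 or WT library 2. The 3 lists were rerun under the same alternatives, a choice made after seeing the data. Of the other plasminogen activation genes, 1 in place of 2 was lower with length and GC trends removed, and 1 to 2 were lower with a library left out. With equal column totals 2 clotting factor genes in place of 1 were lower and 2 in place of 3 higher. Quantile normalization, no filter, no intensity trend and removal of length and GC trends also gave 2 higher. Of the other plasminogen activation genes, 4 in place of 5 were higher with equal column totals. Leaving out a library also changed how many genes were higher in this list and in the clotting factor list. The other anticoagulant and thrombin receptor genes had 4 lower in place of 3 with no filter, and 2 with a filter of 5 FPKM. The cause of these shifts was not tested. No paired analysis was possible because nothing in the labels pairs the libraries, whose numbers follow accession order and only name them. Precision rests on 2 libraries per genotype.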
